A study of Homo sapiens with 24 samples.

Results

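Short detained introns were taken as the bins that the authors' tables class as detained intron and whose width is under 500 bases. There were 793 such bins in 594 genes, out of 4769 detained-intron bins and 164219 bins of all kinds. A bin is a stretch of a gene model within which reads were counted, and it is named here by its gene and bin number (LRCH4_E015). The width came from the tables' annotation and not from any measured level. Of the 793 bins, 598 were whole introns, 201 to 499 bases wide (median 330). The other 195 were not a whole intron on their own: 129 also carried another transcript class, so that they belong to an exon or other feature in some transcripts, and 66 were pieces of a longer detained interval with no other class.

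All RNA came from HEK293T, an immortalised line of human embryonic kidney origin, and was sequenced as stranded libraries of polyadenylated transcripts. The drugs were used in separate experiments. OSMI-2 at 10 µM inhibits OGT, the enzyme that places O-GlcNAc on nuclear and cytoplasmic proteins, and TMG at 5 µM inhibits OGA, the enzyme that removes it. Cells received drug or the solvent DMSO for 2 h or 6 h in medium changed 3 h earlier, which gives 8 groups: DMSO and OSMI-2 at 2 h and 6 h in the OSMI-2 experiment, and DMSO and TMG at 2 h and 6 h in the TMG experiment. Every group had 3 libraries except OSMI-2 at 6 h, which had 2 (the third was not analysed here). Nothing states that libraries of a group came from separate cultures, so p-values measure the spread between these samples, which may be technical. The comparisons ask how splicing of these introns responds when O-GlcNAc is lowered or raised.

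A detained intron is kept in an otherwise spliced, polyadenylated RNA that stays in the nucleus, where it can later be spliced or degraded. Genes for splicing factors and other RNA-binding proteins are known for such introns, which hold a part of their transcripts back from translation. An intron is recognised by a 5′ splice site, nearly always GT at its first bases, and a 3′ splice site, nearly always AG at its last. The major spliceosome cuts most GT-AG introns and a few GC-AG ones, and most AT-AC introns are cut by the minor spliceosome. The end bases alone thus do not tell which spliceosome cuts an intron. In short introns the splice sites are thought to be paired with each other across the intron, whereas in long introns they are paired across the exons.

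The tables use hg19 positions, for which no genome sequence was at hand. Sequences could be read where a GENCODE v29 (GRCh38) intron of the same gene, strand and width was kept in an annotated transcript. Of the 598 whole introns, 414 matched a single GENCODE intron in this way and 184 of these were kept in a transcript; 182 of the 184 began with GT and ended with AG, 1 was GC-AG and 1 was AT-AC. The 6 printed here stand for the kinds of intron in the results: LRCH4_E015 (leucine-rich repeat protein LRCH4) fell with OSMI-2 at 6 h, PRPF8_E018 lies in the gene of the central protein of the spliceosome, GNL3_E008 (a nucleolar GTPase) and RPL13_E004 (a ribosomal protein) hold the snoRNA genes SNORD19B and SNORD68, F12_E005 is the GC-AG intron and stood high relative to its gene, and SETD1A_E016 (a histone H3 lysine methyltransferase) is the AT-AC intron. Each is written 5′ to 3′ on the gene's strand, with the first and last 2 bases of the intron in capitals.
LRCH4_E015: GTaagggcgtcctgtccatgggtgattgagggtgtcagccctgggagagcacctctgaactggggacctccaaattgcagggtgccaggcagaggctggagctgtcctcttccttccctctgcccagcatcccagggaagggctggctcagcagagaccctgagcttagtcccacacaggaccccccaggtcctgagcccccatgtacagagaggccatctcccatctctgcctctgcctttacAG
PRPF8_E018: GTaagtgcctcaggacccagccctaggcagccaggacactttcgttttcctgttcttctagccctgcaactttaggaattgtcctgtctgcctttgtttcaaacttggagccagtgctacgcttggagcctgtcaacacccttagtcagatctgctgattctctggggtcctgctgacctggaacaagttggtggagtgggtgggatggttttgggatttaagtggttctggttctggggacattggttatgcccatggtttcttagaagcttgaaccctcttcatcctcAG
GNL3_E008: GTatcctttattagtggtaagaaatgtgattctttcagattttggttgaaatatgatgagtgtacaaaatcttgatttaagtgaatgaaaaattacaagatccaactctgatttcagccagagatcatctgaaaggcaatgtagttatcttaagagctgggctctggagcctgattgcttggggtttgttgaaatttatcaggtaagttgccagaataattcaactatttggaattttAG
RPL13_E004: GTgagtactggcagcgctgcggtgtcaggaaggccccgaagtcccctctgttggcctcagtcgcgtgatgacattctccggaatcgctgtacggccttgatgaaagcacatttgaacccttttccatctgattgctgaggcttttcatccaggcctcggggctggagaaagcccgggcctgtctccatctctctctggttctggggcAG
F12_E005: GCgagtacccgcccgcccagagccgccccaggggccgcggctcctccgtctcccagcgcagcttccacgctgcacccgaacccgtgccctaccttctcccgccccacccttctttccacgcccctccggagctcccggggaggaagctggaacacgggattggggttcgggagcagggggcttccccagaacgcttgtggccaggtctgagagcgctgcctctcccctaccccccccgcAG
SETD1A_E016: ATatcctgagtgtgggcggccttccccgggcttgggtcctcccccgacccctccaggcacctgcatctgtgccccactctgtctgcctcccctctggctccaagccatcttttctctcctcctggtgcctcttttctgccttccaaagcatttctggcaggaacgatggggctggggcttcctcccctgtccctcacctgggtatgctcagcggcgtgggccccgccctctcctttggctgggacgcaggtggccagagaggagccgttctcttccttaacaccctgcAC

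On hg19, as the tables give them, these introns lie at chr7:100175536-100175781 on the minus strand (LRCH4_E015, 246 bases), chr17:1562843-1563134 on the minus strand (PRPF8_E018, 292 bases), chr3:52724721-52724960 on the plus strand (GNL3_E008, 240 bases), chr16:89627777-89627985 on the plus strand (RPL13_E004, 209 bases), chr5:176830619-176830859 on the minus strand (F12_E005, 241 bases) and chr16:30991516-30991805 on the plus strand (SETD1A_E016, 290 bases). On GRCh38, where the sequences were read, they are chr7:100577913-100578158, chr17:1659549-1659840, chr3:52690705-52690944, chr16:89561369-89561577, chr5:177403618-177403858 and chr16:30980195-30980484. A width match within a gene identifies the intron but is not a conversion of the coordinates.

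Most host genes had a single short bin: 467 genes had 1 bin, 89 had 2 and 38 had 3 or more. Counting whole introns alone, 420 genes had 1, 64 had 2 and 14 had 3 or more. ZNF512B had 12 bins, QARS (glutaminyl-tRNA synthetase) 7, and DDX11, MMS19, NUP188, PI4KA and TBC1D3F 5 each. Of these bins 2 were whole introns in ZNF512B and 0 in QARS. The bins lay toward the 3′ ends of their genes, with 74.1% beyond the midpoint of the gene's bins, against 74.2% of all detained introns. Chromosome 19 held 9.08% of them (5.93% of all detained introns), chromosome 17 held 8.58% (6.23%) and chromosome 16 held 6.94% (5.20%). Just inside the width limit were HPS4_E009 at 499 bases and ACAD9_E021, FAN1_E013, MAP4K4_E024 and NPEPL1_E017 at 497; just outside were PABPC4_E008 and RBM22_E004 at 500 and DPF2_E012 at 501. Relative to their genes with OSMI-2 at 6 h, HPS4_E009 was at -1.77, ACAD9_E021 at -1.29 and NPEPL1_E017 at 0.37 on the log2 scale, and PABPC4_E008 was at -2.40, RBM22_E004 at -1.65 and DPF2_E012 at -1.79.

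Total counts per library ran from 39465746 to 100161560. At both times the OSMI-2 libraries held more counts than the DMSO libraries beside them (63091004 to 100161560 against 43180570 to 51721125 at 2 h, and 56236427 to 86285064 against 41737278 to 54136565 at 6 h). Of the 793 bins, 697 had a mean of 10 or more counts over the 23 libraries (552 whole introns; median 35.7 counts, highest 2469), 96 fell below, and 10 had no counts at all. The defining markers of this line's embryonic kidney origin were low (PAX2 at 1.21 to 4.20 and LHX1 at 0.0580 to 0.695 CPM of the library total), VIM was at 306 to 787, KRT8 at 9.33 to 70.5, KRT18 at 16.8 to 112 and NEFM at 0.3004 to 2.20. Of 5 markers of other cells COL1A1 (fibroblasts), at 6.28 to 20.4 CPM, was counted in every library, and PTPRC, ALB, CD3E and INS had no value here. The dependence of gene counts on the GC content of transcripts differed between experiments. Its slope, in log2 counts per 10 percentage points of GC, was 0.161 to 0.939 in the OSMI-2 experiment, with DMSO 6 h library a lowest, and -0.854 to -0.539 in the TMG experiment.

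Levels were read in a pair of ways: as counts of the intron in a library, and as a percent of the counts of its own gene outside detained-intron bins. The short bins together, whole introns or not, held 0.0653% ± 0.0048 (SD, n = 3) of all counts in DMSO at 2 h and 0.0638% ± 0.0062 (SD, n = 3) with OSMI-2 at 2 h. At 6 h in the same experiment they held 0.172% ± 0.023 (SD, n = 3) in DMSO and 0.0684% ± 0.0072 (SD, n = 2) with OSMI-2. In the TMG experiment the values were 0.0754% ± 0.0047 in DMSO and 0.0845% ± 0.0055 with TMG at 2 h, and 0.0904% ± 0.0076 and 0.0960% ± 0.0056 at 6 h (SD, n = 3 each). Whole introns alone held 0.0347% in DMSO and 0.0334% with OSMI-2 at 2 h, and 0.121% and 0.038% at 6 h. With TMG and its DMSO they held 0.0571% and 0.0490% at 2 h, and 0.0669% and 0.0619% at 6 h. The DMSO 6 h libraries of the OSMI-2 experiment thus stood above all other groups, and the OSMI-2 6 h libraries were at the level of that experiment's 2 h libraries.

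The median short intron followed the same order as a percent of its gene. It stood at 0.385% in DMSO and 0.378% with OSMI-2 at 2 h, and at 1.21% in DMSO and 0.379% with OSMI-2 at 6 h. In the TMG experiment it stood at 0.665% in DMSO and 0.812% with TMG at 2 h, and at 0.866% and 0.956% at 6 h. For 449 of the 697 bins (64.4%) the highest of the 8 group means was that of DMSO at 6 h in the OSMI-2 experiment, and for 134 (19.2%) it was that of TMG at 6 h.

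**Figure D1:**
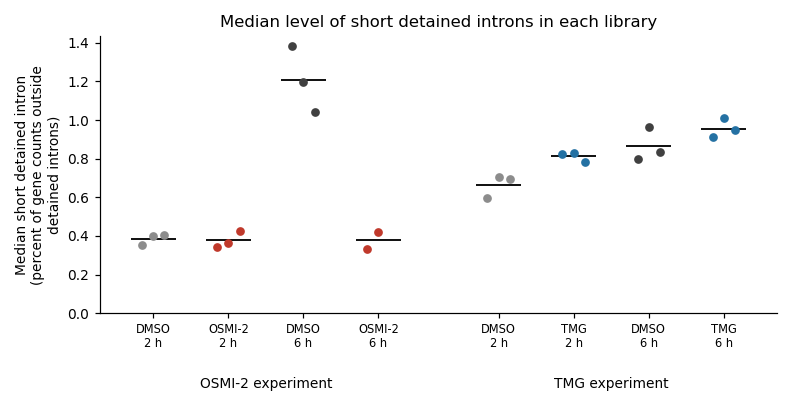
Median level of the short detained introns with a mean of 10 or more counts, as a percent of gene counts outside detained introns (y axis), in each of 23 libraries (points) by group (x axis), with group means as bars. The DMSO 6 h libraries of the OSMI-2 experiment sit between 1.04% and 1.38%, above every other library, and the OSMI-2 6 h libraries sit at 0.335% and 0.423%.

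Most short introns were a small fraction of their gene. In DMSO at 2 h of the OSMI-2 experiment, 95 of 697 were under 0.1% and 28 (4.02%) were at 5% or more; in DMSO at 6 h of that experiment 6 were under 0.1% and 55 (7.89%) at 5% or more. Per base the whole short introns were denser than longer detained-intron bins, whole or not. Density was the count per base of intron, as a percent of the count per base of the gene outside detained introns. In DMSO at 6 h of the OSMI-2 experiment its median was 18.3, against 8.99 for bins of 500 to under 1500 bases and 4.26 for those of 1500 bases or more. In DMSO at 6 h of the TMG experiment it was 13.2, 5.80 and 1.69. A read that touches several bins is counted in each, and reads that cross an intron's border make up more of a short intron's counts; their part in these densities was not tested.

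The introns with the largest percent of their gene stood high in every library. EFCAB4A_E006, with a mean of 36.1 counts, ran from 14.8% to 37.0% of its gene, and MAPK15_E008, with a mean of 31.5 counts, from 8.09% to 17.6%. Among introns with a mean of 50 or more counts, EME2_E010 (EME2 is a subunit of a structure-specific DNA endonuclease), 471 bases, ran from 14.5% to 18.8% over all 23 libraries. SQSTM1_E010 (SQSTM1 is the autophagy receptor p62), 420 bases with a mean of 1044 counts, ran from 9.15% to 11.1%. The intron E005 of the merged model CTD-2587H24.4+TNNI3 ran from 8.37% to 13.9%, C1orf63_E005 from 6.41% to 12.4% and F12_E005 (F12 is coagulation factor XII) from 5.73% to 12.7%. Among bins that were not whole introns, ATP5O_E003, 13 bases of an ATP synthase gene, ran from 10.7% to 12.5% and PABPC1L_E012, in the gene of a poly(A)-binding protein, was at 8.33% or more in every library.

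OSMI-2 at 2 h moved no short intron past the threshold. Of 560 tested by counts (edgeR quasi-likelihood test, Benjamini-Hochberg adjustment over all detained introns, threshold 0.05) 0 passed, with 14 at an unadjusted p under 0.05; over all detained introns 0.129% were called. Relative to the gene (limma on the log2 ratio of intron to gene counts) 0 of 556 passed, with 19 at an unadjusted p under 0.05, against 0.0643% of all detained introns. The median relative change was -0.08 on the log2 scale. The smallest p-values belonged to CYTH2_E012, at 1.02 in log2 counts (edgeR adjusted p = 0.997), and PTPRS_E016, at -1.27 (edgeR adjusted p = 0.9996). DESeq2 also called 0.

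After 6 h with OSMI-2 nearly all short introns were lower than in DMSO. LRCH4_E015 was at 2.61%, 2.11% and 1.85% of its gene in the DMSO libraries and at 0.290% and 0.390% in the OSMI-2 libraries, from 112, 119 and 99 counts to 12 and 28. The groups did not overlap, and the relative change was -2.62 ± 0.33 (SE; limma adjusted p = 7.87e-14). MMS19_E031, in the gene of an iron-sulfur cluster assembly factor, was at 1.41%, 0.896% and 0.889% in DMSO and at 0.117% and 0.176% with OSMI-2, a change of -2.80 ± 0.32 (SE; limma adjusted p = 2.07e-16). GBF1_E042, in the gene of a Golgi Arf exchange factor, was at 1.01%, 0.951% and 0.875% and then at 0.124% and 0.137%, a change of -2.82 ± 0.31 (SE; limma adjusted p = 8.87e-18). All OSMI-2 libraries lay below all DMSO libraries for these 3 introns.

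Over the whole set, 642 of 746 short introns fell relative to their gene and 2 rose, with a median of -1.57; of all detained introns tested 89.2% fell, with a median of -1.63, and 0.217% rose. By counts 631 of 761 fell and 7 rose (86.3% of all detained introns fell and 0.599% rose), with a median of -1.45. The 642 lie in 500 genes, and 587 introns fell by both measures. The groups did not overlap, downward, for 670 of 746 (91.6% of all detained introns). When library sizes were scaled on the detained introns alone, which sets their bulk to no change by construction, 38 fell and 95 rose by counts. Without DMSO library a, whose GC slope stood apart, 621 fell relative to the gene, and leaving out any 1 library kept 584 to 640 calls.

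**Figure D2:**
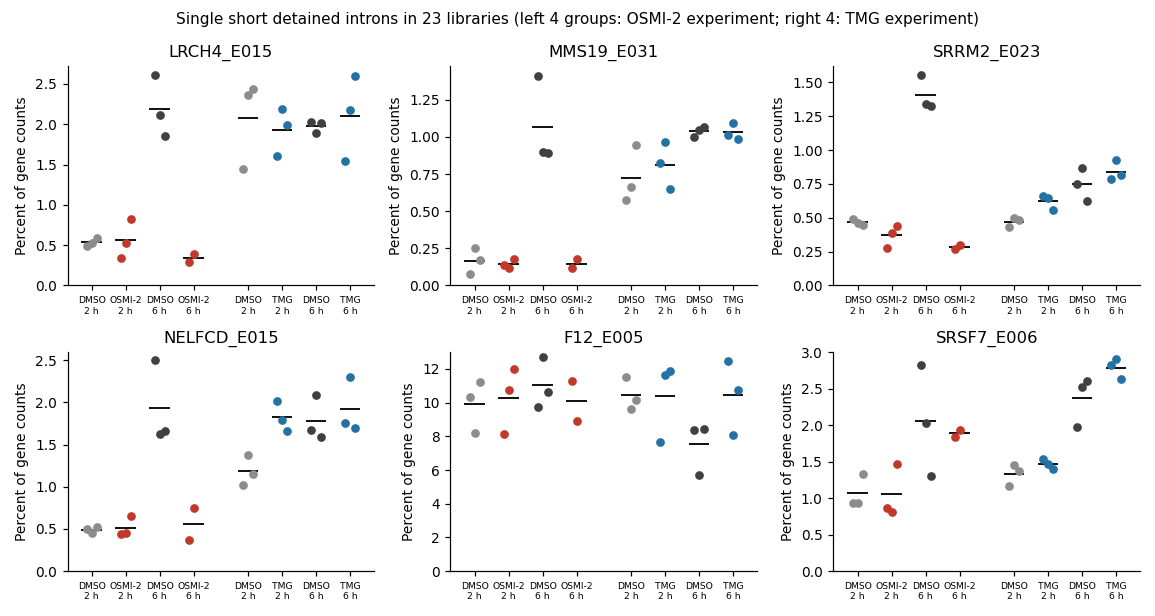
Percent of gene counts outside detained introns (y axis) for 6 short introns in each library (points) by group (x axis; left 4 groups the OSMI-2 experiment, right 4 the TMG experiment), with group means as bars. LRCH4_E015, MMS19_E031, SRRM2_E023 and NELFCD_E015 are high in DMSO 6 h and low in OSMI-2 6 h libraries, whereas the groups overlap for F12_E005 and SRSF7_E006.

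The DMSO libraries of this experiment themselves differed between the times. Between 2 h and 6 h in DMSO of the OSMI-2 experiment 610 of 728 short introns rose relative to the gene and 4 fell, with a median of 1.49 (88.0% of all detained introns rose and 1.27% fell). By counts 628 of 729 rose and 18 fell (88.5% of all detained introns rose and 1.79% fell). LRCH4_E015 was at 0.486%, 0.528% and 0.593% in DMSO at 2 h, MMS19_E031 at 0.0735%, 0.251% and 0.170%, and GBF1_E042 at 0.283%, 0.216% and 0.292%. All of these lay below the DMSO 6 h libraries; beside the OSMI-2 6 h libraries, those of MMS19_E031 overlapped them and those of LRCH4_E015 and GBF1_E042 lay above them. Both comparisons use the same DMSO 6 h libraries, so they are not independent. Among introns with a mean of 50 or more counts in the comparison the largest rises by counts were those of DENND4B_E019 (2.97), PAN2_E010 (2.94, in the gene of a poly(A) nuclease subunit) and TPP1_E005 (2.72, in the gene of a lysosomal peptidase), and the largest falls those of TMEFF1_E005 (-1.10), E005 of CTD-2587H24.4+TNNI3 (-1.07) and GLA_E007 (-1.03). Relative to the gene PRMT2_E010 rose most, by 3.615, but its percents follow another bin of its model, as given below. GPR108_E009 rose by 2.79 and MAPK12_E017, a bin of 171 bases that is not a whole intron, by 2.77.

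In the DMSO libraries of the TMG experiment 86 of 663 short introns rose relative to the gene between 2 h and 6 h and 1 fell (18.9% of all detained introns rose and 0.662% fell), with a median of 0.31. By counts 81 of 665 rose and 6 fell (21.0% and 0.904% of all detained introns). Among introns with a mean of 50 or more counts in the comparison, AARS_E004 rose most by counts (2.78, and 2.08 relative to the gene) and ASNS_E009, in the gene of asparagine synthetase, relative to the gene. ASNS_E009 was at 0.0916%, 0.0825% and 0.0862% of the gene at 2 h and at 0.526%, 0.901% and 0.677% at 6 h, a change of 2.95 ± 0.27 (SE; limma adjusted p = 1.33e-24). Its counts were 27 to 33 at 2 h and 71 to 113 at 6 h, a change of 1.71 by counts. Relative to the gene 35, 47 and 53 introns passed without DMSO 2 h library a, b or c, and 39 without DMSO 6 h library c. By counts 31, 43 and 40 passed without DMSO 2 h library a, b or c, and 134, 50 and 44 without DMSO 6 h library a, b or c.

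The DMSO groups of the experiments also differed at the same time. At 2 h, 307 of 597 short introns were higher relative to the gene in the TMG experiment and 28 lower (34.3% of all detained introns were higher and 12.2% lower), with a median of 0.72. By counts 155 of 601 were higher and 111 lower (37.5% and 18.2% of all detained introns), with a median of 0.14. At 6 h, 177 of 736 were lower in the TMG experiment and 5 higher (56.6% of all detained introns were lower and 0.720% higher), with a median of -0.36; without DMSO 6 h library a of the OSMI-2 experiment 110 were lower and 7 higher. By counts 470 of 739 were lower and 22 higher (54.6% and 8.35% of all detained introns), with a median of -0.91. The experiments differ in their GC slope as well as in any other way in which they were run, and these cannot be told apart. SLC25A3_E003, a bin with another class in the gene of the mitochondrial phosphate carrier, was 3.24 higher at 2 h. STIM2_E002, in the gene of a calcium sensor of the endoplasmic reticulum, differed by -2.52 at 6 h, where it stood at 15.9%, 17.4% and 17.8% in the OSMI-2 experiment and at 3.22%, 2.79% and 2.75% in the TMG experiment.

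The OSMI-2 change was set beside how strongly an intron was retained in the other experiment; the difference between the levels was not tested. Whole introns with a mean of 10 or more counts were grouped by their percent of the gene in the DMSO 2 h libraries of the TMG experiment, which took no part in the comparison. Of those under 0.3%, 121 of 124 fell with OSMI-2 at 6 h, with a median of -1.88; of those at 0.3% to 1%, 212 of 222 fell (median -1.78). Of those at 1% to 5%, 153 of 181 fell and 1 rose (median -1.44), and of those at 5% or more, 9 of 24 fell (median -0.43). The rise in DMSO from 2 h to 6 h had the same order, with medians of 1.80, 1.69, 1.36 and 0.38, on shared DMSO 6 h libraries. In DMSO of the TMG experiment the rise did not follow that order: grouped by the DMSO 2 h libraries of the OSMI-2 experiment, the medians were 0.32, 0.36, 0.34 and 0.02, and 23 of 219, 26 of 183, 20 of 101 and 2 of 20 rose. For the OSMI-2 comparison the median mean count was 23.1 in the lowest group and 59.8 in the highest. The limit of 10 counts took in the compared libraries. Introns at a low level could thus pass through high counts in DMSO at 6 h, and those that stayed low there were left out. The order of the medians cannot be told apart from this selection.

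**Figure D3:**
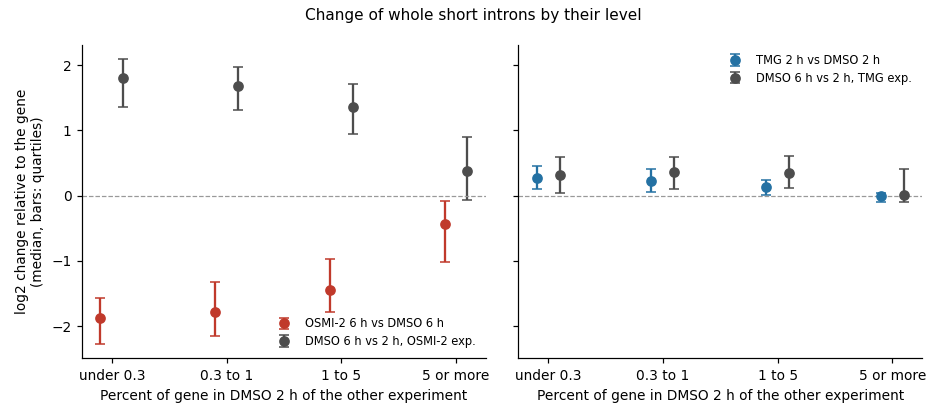
Median log2 change relative to the gene, with quartiles over introns (y axis), of whole short introns grouped by their percent of the gene in DMSO 2 h libraries of the other experiment (x axis). With OSMI-2 at 6 h the median goes from -1.88 in the lowest group to -0.43 in the highest; with TMG at 2 h it goes from 0.27 to 0.00.

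Among 185 whole introns with a mean of 50 or more counts over all libraries, 167 fell relative to the gene with OSMI-2 at 6 h and 17 did not pass. Of all whole short introns tested 89.5% fell, and of all detained introns 89.2%. The median percent of the gene over all libraries was 5.84 for the 17, against 1.18 for the 185. The limit and the percents both took in the compared libraries. An intron that falls could reach the limit through DMSO at 6 h, so these medians cannot be told apart from the selection. F12_E005, the GC-AG intron, was at 9.75%, 12.7% and 10.7% in DMSO and at 11.3% and 8.92% with OSMI-2, a relative change of -0.14 ± 0.31 (SE; limma adjusted p = 0.676). By counts it rose by 0.64 (edgeR adjusted p = 0.0403). EME2_E010 was at 16.3%, 14.8% and 15.2% in DMSO and at 14.7% and 15.3% with OSMI-2, whereas its counts fell by 0.90 (edgeR adjusted p = 0.00182). SQSTM1_E010 was at 9.37%, 9.36% and 9.26% in DMSO and at 9.34% and 9.83% with OSMI-2. TAF1D_E010, in the gene of a subunit of the RNA polymerase I selectivity factor, was at 4.94%, 5.75% and 5.03% and then at 5.88% and 4.43%. The groups overlap for all 4 introns as a percent of the gene.

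GLA_E007 (GLA is the lysosomal alpha-galactosidase) was 1 of the 2 introns that rose relative to the gene; the other was PCNT_E020. It was at 1.52%, 0.844% and 0.749% in DMSO and at 1.45% and 1.78% with OSMI-2, a change of 0.70 ± 0.30 (SE; limma adjusted p = 0.0202), with overlapping groups. By counts it was at -0.03 (edgeR adjusted p = 0.934). AARS_E004, in the gene of alanyl-tRNA synthetase, took either a low or a high level within groups: 3.46%, 0.925% and 3.06% in DMSO at 6 h and 2.63% and 2.66% with OSMI-2.

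Whole introns were set beside the bins that are not whole. With OSMI-2 at 6 h, 521 of 582 whole introns fell (median -1.64), 50 of 58 pieces with no other class fell (median -1.39), and 71 of 106 bins with another class fell (median -1.07). Within these 106, the 35 that did not fall had a median of 1.79% of the gene over all libraries, and the 71 that fell 0.369%. The other kinds had the same order. Whole introns that did not fall had a median of 2.91% and those that fell 0.679%, and for pieces with no other class it was 1.42% and 0.431%. The difference between the kinds of bin was not tested.

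QARS holds bins with and without another class within 1 detained interval of 681 bases, which is divided into 7 bins. QARS and USP11 were picked after their values were seen, and most bins with another class fell, as given above. QARS_E004, QARS_E006, QARS_E008 and QARS_E010, 7, 128, 93 and 48 bases wide, also carry another class, held 3.49%, 7.07%, 4.95% and 4.14% of the gene over all libraries, and were at -0.07 to -0.03 with OSMI-2 at 6 h. QARS_E005, QARS_E007 and QARS_E009, 94, 119 and 192 bases wide, lie between them, carry the detained-intron class alone, held 0.284%, 0.163% and 0.328%, and fell by 1.59, 1.46 and 1.97. USP11, the gene of a ubiquitin protease, had the same arrangement: USP11_E008 and USP11_E010, with another class, were at 0.01 and 0.05, and the whole intron USP11_E009 between them fell by 1.97.

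Genes with several whole short introns are to be read beside the 89.5% of all whole short introns tested that fell with OSMI-2 at 6 h. Agreement within genes beyond that share was not tested. Of 76 genes with 2 or more whole introns tested (170 introns), all introns fell in 69, some in 4 (ABCA7, HCN3, NUP85, SPG7) and none in 3 (NPEPL1, SEC31B, WDR27). All 5 introns of MMS19 fell, by 1.82 to 3.36, and so did all 5 bins of DDX11, a helicase gene, 4 of them whole introns, by 1.32 to 1.87. Introns of 1 gene share their gene's counts and are not independent of each other.

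**Figure D4:**
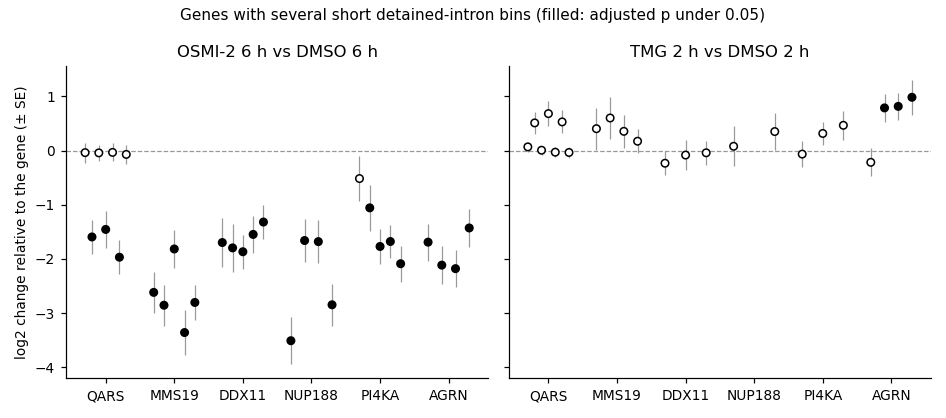
Log2 change relative to the gene, with its SE (y axis), of each tested short detained-intron bin of 6 genes (x axis; bins in order of position), with filled points for an adjusted p under 0.05. With OSMI-2 at 6 h (left) all bins of MMS19, DDX11 and AGRN fell, whereas 4 bins of QARS stand near 0; with TMG at 2 h (right) 3 bins of AGRN rose.

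Splicing factor genes carried short detained introns of their own. Members were found in 3 of 20 genes of SR proteins and their kinases: CLK2_E011 (CLK2 phosphorylates SR proteins), SRSF11_E007 and SRSF7_E006. CLK2_E011 was at 5.45%, 5.93% and 4.42% of its gene in DMSO at 6 h and at 1.35% and 1.57% with OSMI-2, a fall of 1.83 ± 0.26 (SE; limma adjusted p = 1.55e-11). SRSF11_E007 was at 3.41%, 2.77% and 3.54% and then at 0.982% and 1.41%, a fall of 1.44 ± 0.29 (SE; limma adjusted p = 2.36e-06). SRSF7_E006 was at 2.83%, 2.03% and 1.30% and then at 1.84% and 1.93%, a relative change of -0.05 (limma adjusted p = 0.867), with overlapping groups. By counts all 3 fell, SRSF7_E006 by 0.64 (edgeR adjusted p = 0.0275).

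The core spliceosome list had 7 members in 6 of 62 genes, and 6 of the 6 tested fell relative to the gene (median -2.14). PRPF8_E018 was at 0.174%, 0.114% and 0.0935% in DMSO and at 0.0227% and 0.0208% with OSMI-2, a fall of 2.46 ± 0.33 (SE; limma adjusted p = 1.34e-12). EFTUD2_E007 (an U5 snRNP GTPase) fell by 2.54, U2AF2_E011 (the large subunit of the 3′ splice site factor U2AF) by 2.30, PRPF3_E016 by 1.98, and PRPF4B_E023 and PRPF4B_E025 by 0.98 and 0.93. Of 15 members in hnRNP, RBM and other splicing regulator genes 14 fell (median -1.63), among them RBM17_E009 and RBM17_E011 by 2.31 and 2.29, and SRRM2_E021 and SRRM2_E023 by 2.28 and 2.31. SRRM2 is a scaffold of nuclear speckles. CCNL2_E013, at 9.54% in DMSO at 6 h and 6.24% with OSMI-2, fell by 0.61. These shares stand beside 89.2% lower over all detained introns.

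In the other lists, to be read beside the 89.2% of all detained introns that fell, the shares ran from 22 of 23 to 3 of 5, and differences between lists were not tested. Of members in RNA helicase genes 12 of 13 fell (median -1.68; DDX46_E018 by 2.74, DHX38_E017 by 2.05), the exception being DHX8_E026, a bin of 108 bases with another class. Of 23 members in chromatin enzyme genes 22 fell (median -1.86), with KMT2D_E007, HDAC6_E020 and both tested bins of SETD1A among them. SETD1A_E016, the AT-AC intron, was at 0.270%, 0.286% and 0.508% in DMSO and at 0.185% and 0.132% with OSMI-2, a fall of 1.11 ± 0.38 (SE; limma adjusted p = 0.00409), and SETD1A_E009 in the same gene fell by 2.34. In the transcription machinery 11 of 13 fell (POLR2A_E020 by 2.39, MED12_E024 by 2.37). In translation factor and aminoacyl-tRNA synthetase genes 19 of 24 fell, in DNA repair and replication 16 of 20, in proteasome and ubiquitin enzymes 12 of 14, and in mitochondrial ribosome and respiratory chain genes 3 of 5. In these lists QARS alone had 7 bins tested, of which 3 fell, and RECQL4 had 4, of which 1 fell. Lists were drawn by patterns of gene symbols. The translation list thus also holds ribosomal protein genes and RPS6KA4, and the DNA repair and replication list MCM3AP. The 8 genes of O-GlcNAc cycling and hexosamine synthesis had 0 short detained introns.

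HARS2_E010, in the gene of mitochondrial histidyl-tRNA synthetase, was the largest fall by counts among introns with a mean of 50 or more counts in the comparison: 119, 100 and 102 counts in DMSO at 6 h and 5 and 26 with OSMI-2, in deeper libraries, a change of -3.02 ± 0.40 (SE; edgeR adjusted p = 2.94e-12). It stood at 4.06%, 3.802% and 3.01% of its gene in DMSO and at 0.247% and 1.11% with OSMI-2. RAD54L_E006, in the gene of a homologous recombination motor protein, followed at -2.83, then LRCH4_E015 at -2.65, IQGAP3_E014 at -2.64 and MMS19_E031 at -2.61. The rises by counts included AARS_E004 (0.98), EFCAB4A_E006 (0.97), GLTSCR2_E011 (0.74) and F12_E005 (0.64). GLTSCR2_E011, with another class, fell by 0.70 relative to its gene.

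Small RNA genes lay inside 5 of the 414 introns matched to GENCODE. CKAP5_E018 held SNORD67, GNL3_E008 held SNORD19B, RPL13_E004 held SNORD68, KIF18B_E020 held MIR6783 and MARS_E016 held MIR6758. Relative to the gene with OSMI-2 at 6 h, 4 of the 5 fell (median -1.17), and 366 of 403 matched introns without a small RNA gene fell (median -1.68). GNL3_E008 was at 1.39%, 1.59% and 1.35% in DMSO and at 0.5499% and 0.722% with OSMI-2, and RPL13_E004 at 0.350%, 0.304% and 0.309% and then at 0.219% and 0.173%. With no overlap in either, the changes were -1.17 and -0.72. The counts cannot tell a retained intron from a precursor of the small RNA.

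With TMG at 2 h a small number of short introns rose. SRRM2_E023 was at 0.432%, 0.497% and 0.487% of its gene in DMSO and at 0.661%, 0.645% and 0.556% with TMG, from 138, 227 and 185 counts to 294, 271 and 230. Every TMG library lay above every DMSO library, and the changes were 0.59 ± 0.13 by counts (SE; edgeR adjusted p = 0.00494) and 0.39 ± 0.13 relative to the gene (SE; limma adjusted p = 0.0409). NELFCD_E015, in the gene of a subunit of the negative elongation factor, was at 1.03%, 1.38% and 1.16% in DMSO and at 2.02%, 1.79% and 1.66% with TMG, a change of 0.62 ± 0.16 relative to the gene (SE; limma adjusted p = 0.0153). COLGALT1_E013, a piece of a longer interval in the gene of a collagen galactosyltransferase, was at 0.406%, 0.482% and 0.534% and then at 0.764%, 0.850% and 1.01%, a change of 0.87 ± 0.19 (SE; limma adjusted p = 0.00587).

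In all, 27 of 659 short introns rose relative to the gene and 0 fell, with a median of 0.21; 10.2% of all detained introns rose, with a median of 0.30, and 0.0496% fell. By counts 20 of 664 rose and 1 fell (9.69% and 0.123% of all detained introns), and 15 rose by both measures. Of detained introns of 500 to under 1500 bases 113 of 1146 rose, and of those of 1500 bases or more 270 of 2226, with medians of 0.28 and 0.34. The groups did not overlap, upward, for 137 of 659 short introns (30.7% of all detained introns). The 1 fall was PLOD3_E008, a bin of 31 bases with another class (-0.45, edgeR adjusted p = 0.0388), which was at -0.13 relative to its gene. The authors' deposited test of bin usage called 11 of the 658 short introns that had an adjusted p at this time, all higher. It is a different test, and its share over all detained introns was not counted.

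These calls rested on few libraries. By counts 2 introns passed without TMG library b, 9 without TMG library a, 8 without DMSO library c and 11 without DMSO library a. Relative to the gene 2 passed without TMG library a, 2 without TMG library b and 12 without DMSO library a. With the variance trend over the ratio, an alternative chosen after seeing the data, 0 passed relative to the gene, and DESeq2 called 7 by counts. The GC slope moved with the drug, from -0.587 to -0.539 in DMSO to -0.665 to -0.581 with TMG, overlapping between groups; with it as a term in the fit 1 passed by counts and 0 relative to the gene, at medians of 0.24 and 0.21.

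**Figure D5:**
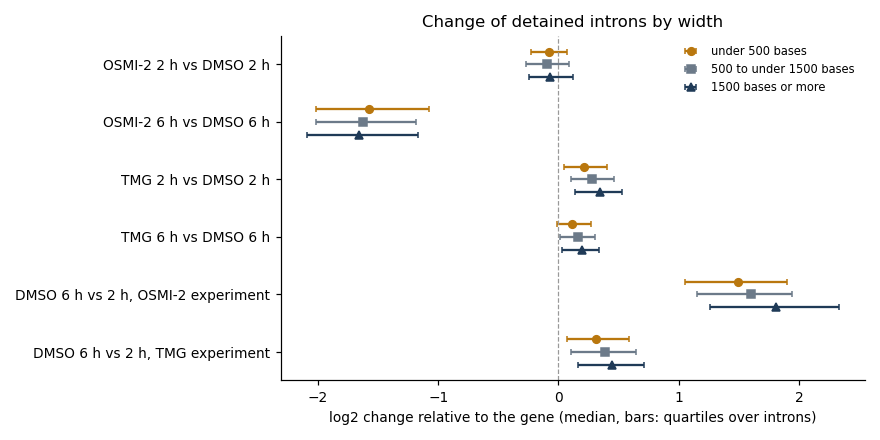
Median log2 change relative to the gene, with quartiles over introns (x axis), of detained introns in 3 width classes for 6 comparisons (y axis). Short introns stand at -1.57 with OSMI-2 at 6 h and at 0.21 with TMG at 2 h, where those of 1500 bases or more stand at 0.34.

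Of the introns that rose with TMG at 2 h, 24 of 27 relative to the gene (88.9%) also fell with OSMI-2 at 6 h, which is 3.74% of the 642 that fell; by counts it was 18 of 20, which is 2.85% of the 631 that fell. The comparisons have separate controls, and 89.2% of all detained introns fell with OSMI-2. In AGRN, the gene of the basement membrane proteoglycan agrin, 3 of 4 introns rose with TMG: AGRN_E037 by 0.79, AGRN_E039 by 0.82 and AGRN_E042 by 0.98 (limma adjusted p = 0.0413, 0.0347 and 0.0413). AGRN_E039 was at 0.297%, 0.462% and 0.454% in DMSO and at 0.755%, 0.669% and 0.711% with TMG. By counts these introns did not pass, and all 4 fell with OSMI-2 at 6 h, by 1.43 to 2.18. MCM5_E016 (a subunit of the replicative helicase) rose by 0.98, DNMT1_E012 (the maintenance DNA methyltransferase) by 0.93, NUP205_E047 (a nuclear pore scaffold protein) by 1.01, GLUL_E003 (glutamine synthetase) by 0.85 and EWSR1_E019 (an RNA-binding protein) by 0.47. PRKCSH_E017 (a glucosidase II subunit) rose by 0.89 and FLNA_E008 (the actin crosslinker filamin A) by 0.68. RPL7A_E007 and RPL13_E004, in ribosomal protein genes, rose by 0.41 and 0.34.

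By list, SRRM2_E023 was the only one of 14 tested members in splicing regulator genes to rise relative to the gene, 0 of 6 rose in the core spliceosome, and 0 of 3 in SR genes. By counts CLK2_E011 and SRSF11_E007 rose, by 0.38 and 0.44 (edgeR adjusted p = 0.0447 and 0.00824). Beside the 10.2% of all detained introns that rose, 3 of 24 rose in translation, 2 of 22 in chromatin enzymes and 1 of 20 in DNA repair. The rises were 0 of 11 in helicases, 0 of 12 in the transcription machinery, 0 of 13 in proteasome and ubiquitin enzymes and 0 of 6 in mitochondrial genes. No difference from that share was tested. The translation rises include AARS_E004 and the chromatin rises PRMT2_E010, whose limits are given below. Grouped by their percent in the DMSO 2 h libraries of the OSMI-2 experiment, whole introns had medians of 0.27, 0.22, 0.14 and 0.00 from the lowest level to the highest, and 12 of 216, 7 of 181, 1 of 103 and 0 of 21 rose. Here too the limit of 10 counts took in the compared libraries.

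A pair of these calls had values that differ within a group. AARS_E004 was at 0.396%, 0.533% and 2.60% of its gene with TMG at 2 h and at 0.385%, 0.392% and 0.383% in DMSO, so that its change of 1.07 (limma adjusted p = 0.0381) lay mostly in TMG library c. PRMT2_E010 was at 0.188%, 0.820% and 0.776% in DMSO and at 1.23%, 0.977% and 1.22% with TMG, a relative change of 1.204 (limma adjusted p = 0.00957), but its counts of 111, 98 and 76 and then 105, 106 and 102 gave 0.18 (edgeR adjusted p = 0.474). The gene model named PRMT2 lies at 9648495 to 10206108 on chromosome 21 in the tables, and its bin E009, 62005 bases wide, held 70.2% to 99.8% of the model's counts outside detained introns, from 5744 to 651517 counts per library, so percents of that model follow E009.

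TMG at 6 h moved no short intron past the threshold. By edgeR 0 of 681 passed, with 32 at an unadjusted p under 0.05 (0.190% of all detained introns were called), and relative to the gene 0 of 668, with 22 at an unadjusted p under 0.05 (0.191%). The median relative change was 0.12, and 486 of 668 introns had a positive change. DDX46_E018, in the gene of a spliceosomal helicase, had the smallest p: it was at 0.112%, 0.176% and 0.146% in DMSO and at 0.277%, 0.430% and 0.308% with TMG, from 13, 20 and 17 counts to 31, 39 and 30. The groups did not overlap, with a change of 1.18 ± 0.31 (SE; limma adjusted p = 0.0822). AGRN_E039 was at 0.603%, 0.391% and 0.302% and then at 0.862%, 1.02% and 0.786% (1.06, limma adjusted p = 0.143). Without DMSO library b 13 introns passed by counts and 9 relative to the gene, and without DMSO library a 2 and 3. Relative to the gene 1 passed without DMSO library c, 1 without TMG library a and 1 without TMG library c.

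Interaction terms, fitted relative to the gene, compared the drugs with each other and the times with each other. At 6 h the OSMI-2 effect was below the TMG effect for 594 of 727 short introns and above it for 0 (85.6% and 0.0886% of all detained introns), with a median difference of -1.73. At 2 h it differed for 0 of 629 (0.130% of all detained introns), with 66 at an unadjusted p under 0.05 and a median of -0.30. The 6 h effect of OSMI-2 was below its 2 h effect for 509 of 708 and above it for 1 (73.4% and 0.211% of all detained introns), with a median of -1.44. For TMG the effects at the times differed for 0 of 669 (0.0485% of all detained introns), with 24 at an unadjusted p under 0.05. The large terms hold the DMSO 6 h libraries of the OSMI-2 experiment, whose levels stood above all other groups.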

How the data were processed

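The members and the gene lists were chosen with earlier results of these data known. The authors deposited 4 tables, 1 per drug and time, with whole-number read counts per bin for 23 libraries; per the submitters' processing notes STAR and hg19 were used, and the counter is not given in the sources used here. Per the file headers the tables also hold, for each bin, the authors' usage test: a p-value, its adjusted p-value and a log2 fold change. These were used as an alternative only.

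Gene counts were summed over bins without the detained-intron class. Library size was the table total scaled by TMM over genes and introns. Counts were tested with edgeR 4.0.16 (glmQLFit, glmQLFTest, filterByExpr) and relative levels, log2 of intron plus 1 over gene plus 1 with means of 10 or more, with limma 3.58.1 (variance trend over the mean log count), in R 4.3.3, on all detained introns. Tests were two-sided, p-values were adjusted by Benjamini-Hochberg over them, and 0.05 was the threshold. DESeq2 1.42.0 was an alternative. A log2 fold change on the plus 1 scale understates changes of low introns. Scripts were tested on simulated data.

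Named introns were the 5 largest changes each way (3 for DMSO comparisons and interactions) among members past the threshold with a mean of 50 or more counts, in drug comparisons also with no overlap between groups, or the 3 smallest p where none passed. 1 intron that the rule names is not reported here. List members, the 5 highest percents and those at the width limit were added. Other introns, such as the bins of AGRN, QARS and USP11, PRPF8_E018 and the introns rising with TMG under 50 counts, were chosen after their values were seen. Sequences are from GENCODE v29 transcripts. Bin counts are not independent reads, since a read touching several bins counts in each. A strand setting for the counting is not given in the sources used here, so overlapping genes and genes with near-identical copies (TBC1D3F, DDX11) are uncertain.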

Additional observations from a re-analysis of the deposited data

Results flagged for a closer look

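The effect of OSMI-2 relative to the gene differed from that of TMG at 6 h for 594 of 727 short introns, by the interaction term in limma with Benjamini-Hochberg adjustment. Of all detained introns 85.6% were called lower by this term. Among introns with a mean of 50 or more counts the largest differences, all with OSMI-2 lower, were -3.19 for HARS2_E010, -2.89 for TSC2_E033 (TSC2 restrains mTORC1) and -2.83 for EDC4_E022 (EDC4 is a scaffold of mRNA decapping). The effect of OSMI-2 at 6 h differed from that at 2 h for 510 of 708 short introns, and 73.4% of all detained introns were called lower. Both terms hold the DMSO 6 h libraries of the OSMI-2 experiment, whose levels stood above all other groups. Under the same limit on counts the largest falls were -2.81 for GBF1_E042, -2.71 for MMS19_E031 and -2.57 for PFKL_E026. PFKL_E026 is a bin of 44 bases and not a whole intron. GLA_E007 at 0.80 was the 1 intron with a higher effect at 6 h.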

How the results depend on the processing

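With library sizes scaled by TMM over detained introns only, which centres these introns on no change by construction, the count calls turned direction: 133 with OSMI-2 at 6 h (95 higher, 38 lower), 19 with TMG at 2 h (1 higher, 18 lower), 182 for DMSO over time in the OSMI-2 experiment (43 higher, 139 lower), 54 in the TMG experiment (12 higher, 42 lower) and 278 between the DMSO groups at 2 h (101 higher, 177 lower). The same scaling gave 1 with TMG at 6 h and 186 between the DMSO groups at 6 h (90 higher, 96 lower).

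DESeq2 called 7 with TMG at 2 h and 40 for DMSO over time in the TMG experiment. The authors' adjusted p, of bin usage, called 11 of 658 with TMG at 2 h. Chosen after seeing the data, the GC slope as a term left 1 (counts) and 0 (relative) with TMG at 2 h and gave 2 and 3 at 6 h, a variance trend over the ratio left 0 relative calls with TMG at 2 h, and whole introns alone moved no count of the drug comparisons by over 1.5 times. Apart from the construction of the scaling, the cause was not tested.

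Leaving out 1 library gave 503 to 631 count and 584 to 640 relative calls with OSMI-2 at 6 h, 2 to 30 and 2 to 33 with TMG at 2 h, 0 to 13 and 0 to 9 with TMG at 6 h, and 0 to 0 in both with OSMI-2 at 2 h. For DMSO over time it gave 615 to 658 and 574 to 616 (OSMI-2 experiment), and 31 to 134 and 35 to 129 (TMG experiment, where every omission but that of DMSO 6 h libraries a and b in the relative fit moved the count by over 1.5 times). Between DMSO groups it gave 215 to 261 and 249 to 326 at 2 h, and 387 to 495 and 117 to 245 at 6 h. For the drug difference at 6 h it gave 531 to 601, for the OSMI-2 time difference 402 to 511, and for the other interactions 0.

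AARS_E004 relative to its gene with TMG at 2 h turned to -0.21 with the GC slope as a term. PRMT2_E010 with TMG at 6 h (-1.42) ran from -2.549 without TMG 6 h library a to 0.67 without library b. Of 1005 values of named introns under the alternatives, 909 kept their direction and side of the threshold. No paired analysis was possible because the labels do not tie the letters of the columns to their replicate numbers. Introns under a mean of 10 counts were not read as a percent of the gene.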
